A study of Mus musculus with 2 samples.

Results

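The cytosolic ribosomal protein genes encode the proteins that, with ribosomal RNA, form the small (40S) and large (60S) subunits of the ribosome. They were taken by symbol from the gene list of the files: Rps and Rpl followed by a number, with an optional letter and an l or x at the end, the Rplp stalk genes and Rpsa. Of 32285 symbols 84 matched, 32 of the small and 52 of the large subunit, and 82 of them had at least 100 UMIs over both libraries and were used. A UMI, or unique molecular identifier, marks 1 captured RNA molecule. Rpl10l with 0 UMIs in both libraries and Rpl39l with 1 control and 6 Mettl14-cKO UMIs fell below that minimum; both are known as testis genes. Pseudogene symbols did not match.

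Single-cell RNA sequencing compared dissociated retinas of mice at postnatal day 7. The control library came from Mettl14 fl/fl or fl/wt mice, for which the labels list no Cre. The Mettl14-cKO library came from Mettl14 fl/fl mice with the Chx10-Egfp/Cre transgene; this transgene is known to drive Cre in retinal progenitors. Each genotype had 1 library, so no comparison has a test, and the labels give neither the number of animals pooled nor their sex nor a batch. Mettl14 is a subunit of the complex that places N6-methyladenosine on messenger RNA.

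Ribosomal protein genes are among the most highly transcribed genes of most cells, and their products are needed in equal amounts, since each ribosome holds 1 copy of nearly all of them. Many of their messenger RNAs begin with a run of pyrimidines, the 5' terminal oligopyrimidine tract, through which the mTOR pathway and Larp1 control their translation and stability. A few have paralogs, such as Rpl22l1 for Rpl22 or Rpl36al for Rpl36a, that can take the place of the parent protein in the ribosome.

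Barcodes with at least 1000 UMIs were kept, 11426 control and 13502 Mettl14-cKO, with 54544552 and 58511730 UMIs and a median of 3487 and 3212 UMIs per cell. Mitochondrial genes took 3.91% and 2.99% of the UMIs, and 39 kept barcodes occurred in both libraries. In GRCm38 coordinates, as for all gene positions below, Mettl14 itself is ENSMUSG00000028114, chromosome 3, 123368297 to 123386108, minus strand. Its level was 27.1 (control) against 14.5 (Mettl14-cKO) CPM, the UMIs of a gene scaled to 1000000 UMIs of the library or class, with a log2 ratio of -0.91 (-1.03 to -0.78). A 3' tag may still count a transcript without its floxed exons, which the labels do not name. Its log2 ratio lay between -1.47 in ganglion cells (-2.73 to -0.31, over 20 and 10 UMIs) and -0.58 in amacrine cells. The amacrine interval of -1.17 to 0.02 reached 0. Cells were assigned to a class when they held at least 4 of its marker genes and at least 2 more than of any other class, which placed 76.4% of control and 66.4% of Mettl14-cKO cells. Throughout, log2 values are Mettl14-cKO over control, intervals are exact 95% intervals that cover counting error only, and a gene counts as higher or lower when its log2 ratio is at least 0.32 from 0 and the Poisson intervals of its levels are separate. One UMI stands for 1 molecule whatever its length, so CPM was not scaled by transcript length. Levels set side by side between genes may still differ in how well each gene is captured and assigned. Those of near-identical copies are uncertain, as described below.

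Ribosomal protein transcripts took a larger share of the Mettl14-cKO library. They made up 10.1% of all control UMIs and 12.3% of all Mettl14-cKO UMIs, a difference of 2.22 percentage points. The small subunit genes went from 4.28% to 5.47% and the large subunit genes from 5.79% to 6.82%. Cells overlapped widely between the libraries: the 5th and 95th percentile of the share per cell were 5.71% and 15.2% for control cells, 5.37% and 19.7% for Mettl14-cKO cells, and 71.4% of Mettl14-cKO cells lay above the control median. The 2 libraries also differ in their mix of classes, with rods at 44.4% and 29.5% of kept cells, so the share is given within each class next.

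The difference was not of 1 direction in all classes. The 6 classes with at least 100 cells in each library were rods, cones, bipolar cells, amacrine cells, ganglion cells and Müller glia. In Müller glia, the support cells of the retina, ribosomal protein genes took 11.6% against 15.03% of UMIs (1145 control and 1782 Mettl14-cKO cells), the widest gap of the 6 at 3.47 points. In bipolar cells the share was 11.3% against 13.6% (1132 control and 916 Mettl14-cKO cells), and in rods 9.50% against 11.6% (5068 control and 3983 Mettl14-cKO cells). Cells gated as cones had 9.05% against 10.5% (466 control and 432 Mettl14-cKO cells). Amacrine cells, inhibitory interneurons, went the other way with 9.09% against 8.504% (560 control and 1108 Mettl14-cKO cells), and ganglion cells, the output neurons, had 6.85% against 6.61% (155 control and 261 Mettl14-cKO cells), a gap of -0.240 points. Of the Mettl14-cKO cells, 84.5% lay above the control median in Müller glia, 81.6% in bipolar cells, 75.5% in rods and 70.8% in cones, against 36.5% in amacrine and 45.6% in ganglion cells. The differences between classes were not tested, since each class of a genotype comes from 1 library.

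**Figure D1:**
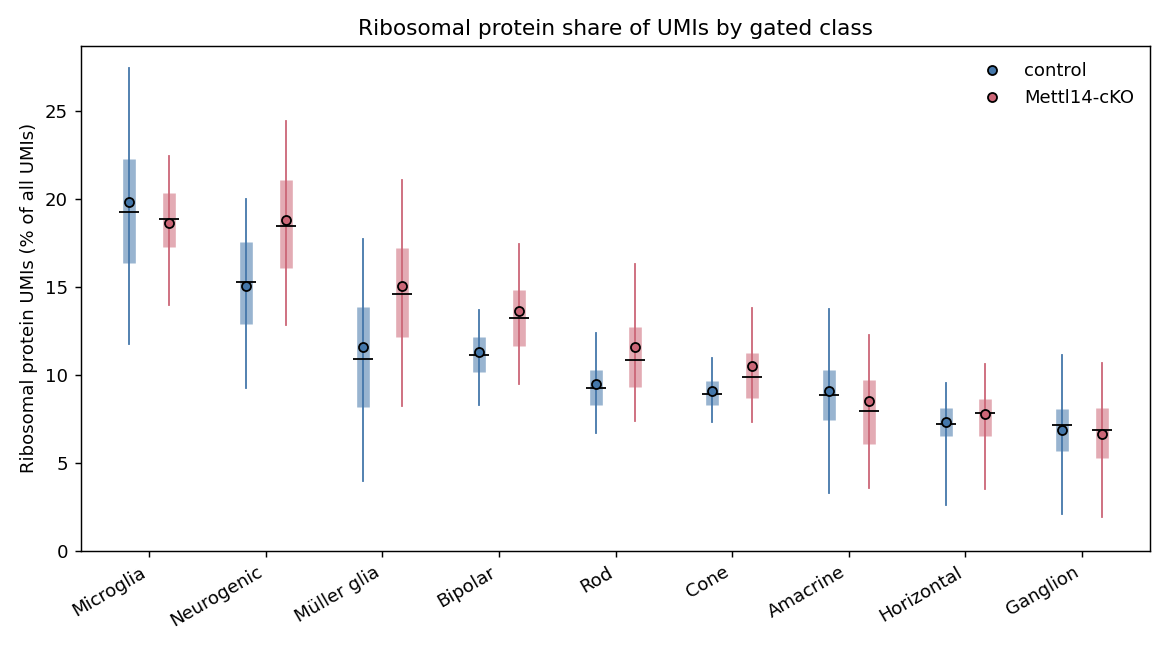
Share of all UMIs that fall on ribosomal protein genes (y axis, percent) in the gated classes of the control (blue) and Mettl14-cKO (red) library; circles are the share of the summed UMIs, bars the median cell, boxes the 25th to 75th and lines the 5th to 95th percentile of cells. The Mettl14-cKO circle lies above the control circle in Müller glia, bipolar cells, rods and cones and below it in amacrine and ganglion cells.

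Some measured features of the classes stand beside these shares. Cells gated as cones held a median of 9 and 10 of 10 rod markers beside a median of 8 cone markers, so their sums include rod transcripts. With barcodes called doublets by Scrublet left out, the cone difference was 1.41 points. Bipolar cells at the minimum of 4 markers were 15.3% of the control and 38.1% of the Mettl14-cKO class. All Müller glia markers stood lower in the Mettl14-cKO class, from Crym (4991 against 1338 CPM) to Sox9 (196 against 192 CPM). Rod markers were lower, such as Gngt1 (5472 against 2399 CPM), except Gnat1 (93.7 against 159 CPM). Bipolar markers were lower, such as Gng13 (439 against 40.6 CPM), except Prdm8, Grik1 and Lhx4. What these marker differences bring to the shares was not tested. Among other cell types, the summed markers of microglia stood at 150 against 448 CPM over all cells, those of erythrocytes at 2139 against 882, of pigment epithelium at 26.3 against 5.13, of vascular cells at 122 against 104 and of astrocytes at 44.0 against 58.8, with no marker of any list at 0. Their part in the shares was not tested. Free RNA was not removed; in the 17 control barcodes gated as erythrocytes, which have few ribosomes left, ribosomal protein genes took 1.11% of UMIs at a median of 4484 UMIs per barcode.

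The gain of share came with more ribosomal protein UMIs per cell in rods and with fewer other UMIs per cell in cones. A rod held a mean of 372 ribosomal protein UMIs in control and 471 in Mettl14-cKO cells, while its other UMIs numbered 3549 against 3604 on average. A cell gated as a cone held 1324 and 1341 ribosomal protein UMIs and 13313 and 11459 other UMIs. The values per Müller glia cell were 453 and 553 ribosomal protein UMIs and 3460.2 and 3126 other UMIs. In bipolar cells the ribosomal protein UMIs were 555 and 597, and the other UMIs 4369.9 and 3789.6. Amacrine cells held fewer of both, with ratios of 0.777 for ribosomal protein and 0.837 for other UMIs, and so did ganglion cells, with 0.794 and 0.825. UMIs per cell also move with the sequencing depth of a library, so these means describe the libraries.

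The share was higher in Mettl14-cKO rods at each depth of the cell. In rods of 1000 to 2000, 2000 to 4000, 4000 to 8000 and at least 8000 UMIs the share was 9.03% against 10.4%, 9.56% against 11.4%, 9.80% against 12.1% and 9.44% against 11.7%. Müller glia differed most among shallow cells, with 7.02% against 12.2% below 2000 UMIs and 13.8% against 15.1% from 8000 UMIs. In amacrine cells the gap was present at 2000 to 4000 UMIs (8.87% against 7.64%), narrow at 4000 to 8000 (9.17% against 8.94%) and absent at 8000 or more (9.42% against 9.44%); below 2000 UMIs it had the other sign (5.35% against 6.005%). In ganglion cells of 2000 to 4000 UMIs the direction turned (5.34% against 6.14%; 24 and 48 cells). The cone gap narrowed there to 8.95% against 9.41%, over 34 and 47 cells. Grouping cells by how many of their own markers they held gave a rod share of 10.2% against 12.7% at 4 to 6 markers, 9.59% against 12.1% at 7 to 8 and 9.39% against 11.03% at 9 to 10, and a Müller glia share of 12.7% against 15.8%, 12.5% against 15.2% and 9.95% against 13.7%. In amacrine cells with 7 to 8 markers the share was 8.71% against 8.56%, a gap of -0.145 points.

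**Figure D2:**
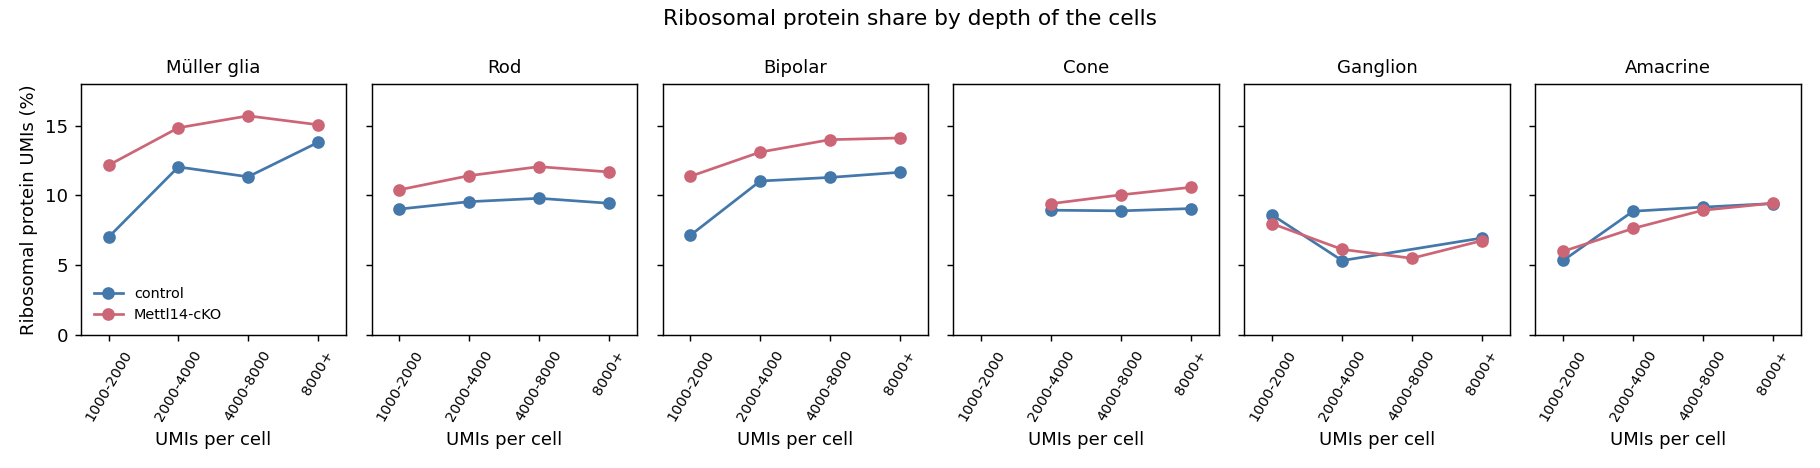
Ribosomal protein share of UMIs (y axis, percent of the summed UMIs) for cells of each class in 4 ranges of UMIs per cell (x axis), control in blue and Mettl14-cKO in red; ranges with fewer than 20 cells in a library are not drawn. The lines stay apart in rods, Müller glia and bipolar cells and cross in ganglion and amacrine cells.

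Counted gene by gene over all kept cells, 32 of the 82 members were higher and 2 lower in the Mettl14-cKO library, with a median log2 ratio of 0.23. Of the 14172 genes tested, 20.7% were higher and 20% lower, with a median of -0.02. The 2 subunits did not have the same median: 0.36 over 32 small subunit genes and 0.15 over 50 large subunit genes. The members spanned -0.54 to 0.91, and 12 lay at least 0.32 from the members' median with an interval that left it out. A count of such departures over all genes is not given here. For all genes the nearest figures are the 20.7% higher and 20% lower above, which are measured from 0. The 48 members that were neither higher nor lower lay between -0.27 for Rpl29 and 0.30 for Rps28. In the annotation (GENCODE M21), 21 members overlap a counted gene on the opposite strand, among them Rps27a, Rpl3, Rpl22l1, Rps25, Rpl23a and Rpl31, and Rpl19 overlaps Gm11629 on the same strand. Whether counting used the strand is not given in the sources used here, so UMIs of such partners may not be separable.

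**Figure D3:**
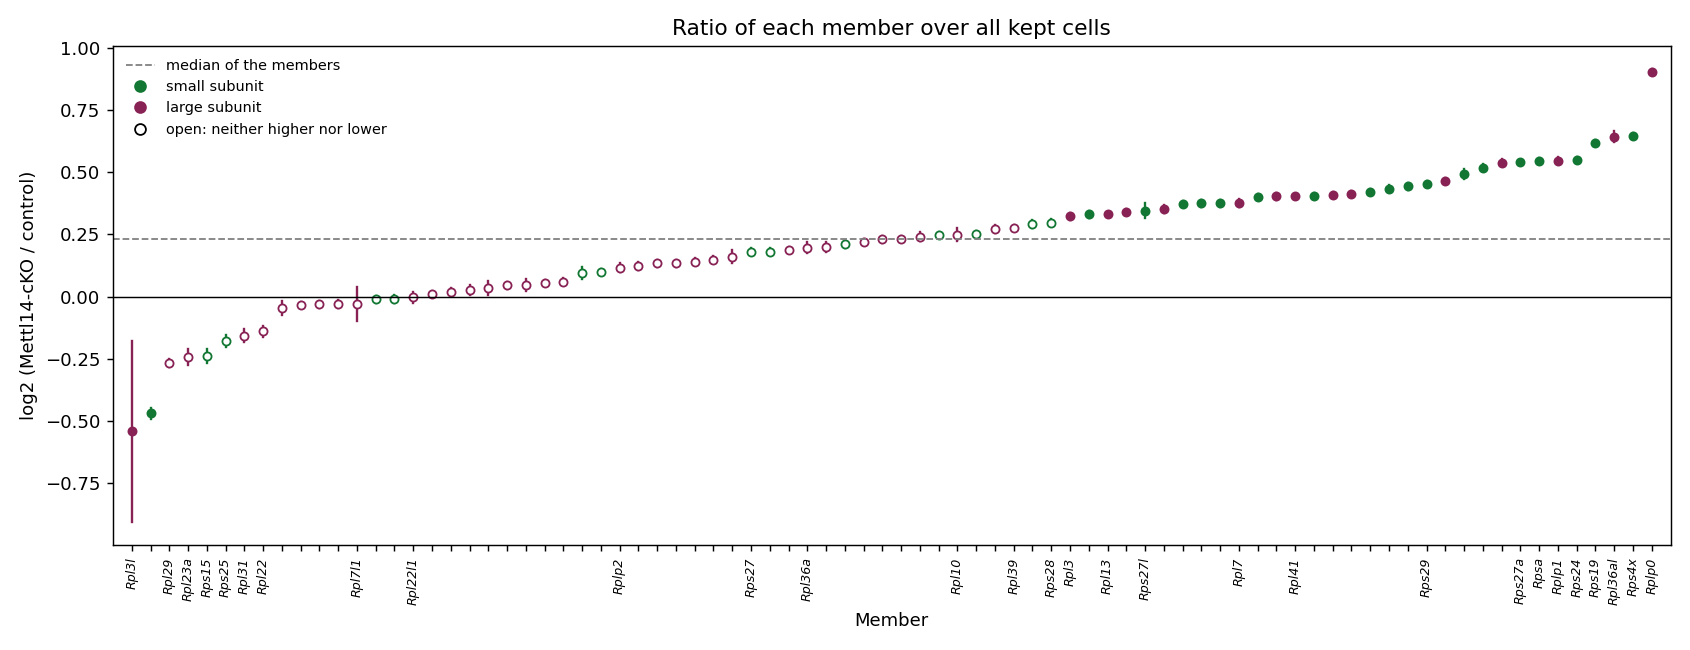
Log2 ratio, Mettl14-cKO over control, of each of the 82 ribosomal protein genes over all kept cells (y axis), ordered by value, with exact 95% intervals as vertical lines; green is the small and purple the large subunit, open circles are neither higher nor lower, the dashed line is the members' median, and names are printed for members described in the text; that median is 0.23. Rplp0 stands highest at 0.91, and Rpl3l lowest.

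Within classes, the counts followed the shares. In Müller glia 43 of 81 members were higher and 0 lower, at a median of 0.33, where 15.1% of all genes tested were higher and 10.7% lower, at a median of 0.05. In rods 31 of 82 were higher and 1 lower (median 0.22; all genes 16.1% and 19.4%, median -0.06). In bipolar cells 25 of 81 were higher and 2 lower (median 0.19; all genes 14% and 14.3%, median -0.02). In cones 18 of 82 were higher and 4 lower (median 0.14; all genes 12.5% and 14.6%, median -0.06). With levels scaled by the median ratio over all genes, the cone counts were 27 and 2.

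The remaining classes had more members lower than higher. In amacrine cells 2 of 81 were higher and 11 lower (median -0.17), against 10.6% and 7.66% of all genes tested and their median of 0.04; scaled by the median ratio, the counts were 1 and 18. The large subunit lay lower there, at a median of -0.24 against -0.03 for the small subunit. In ganglion cells 1 of 81 was higher and 7 lower (median -0.07), against 5.18% and 3.62% of all genes and a median of -0.0032. Ganglion cells had the fewest genes tested, 9834, and the fewest UMIs in each library. Of the 81 members tested in all 6 classes, 45 were higher in at least 1 class and 17 lower in at least 1. Of the 8645 genes tested in all 6, 31% were higher in at least 1 class and 35% lower. Only Rpl39 was a member higher in 1 class and lower in another, as were 2.67% of all those genes.

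**Figure D4:**
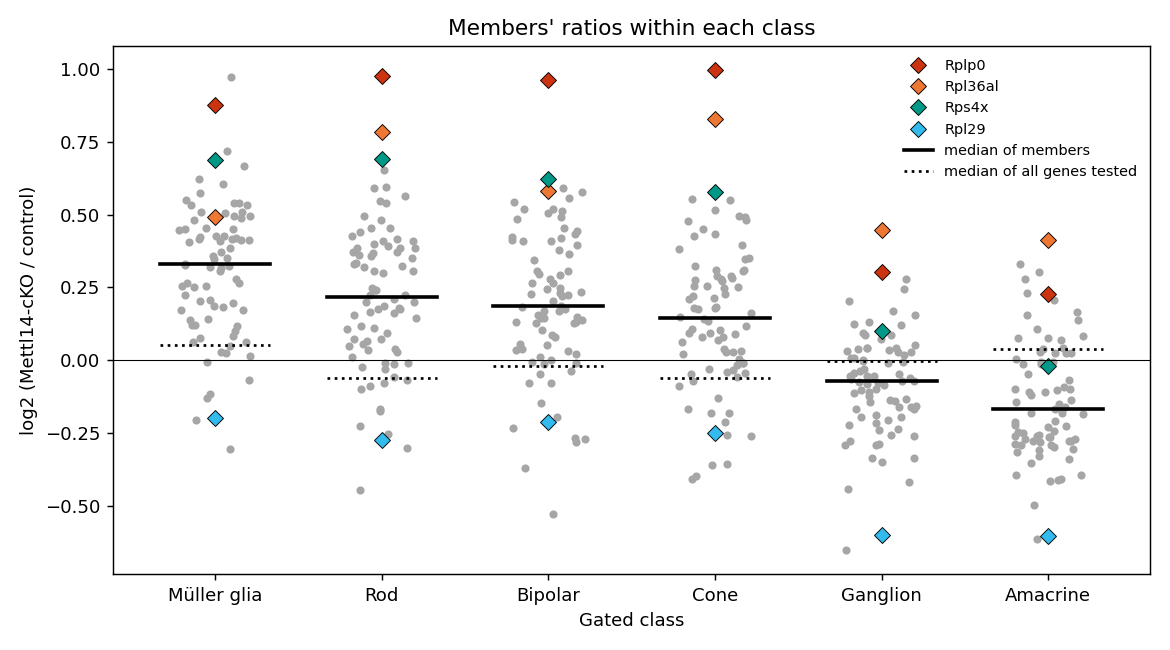
Log2 ratio of each ribosomal protein gene, Mettl14-cKO over control (y axis), within each of the 6 gated classes (x axis); grey points are genes, coloured diamonds 4 named genes, solid bars the members' median and dotted bars the median of all genes tested. The members' median lies above that of all genes in Müller glia, rods, bipolar cells and cones and below it in ganglion and amacrine cells; Rplp0 and Rpl29 lie above and below the members' median in all 6.

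The acidic stalk of the large subunit, which recruits the translation factors, held the gene with the highest ratio. Rplp0 (ENSMUSG00000067274, chromosome 5, 115559467 to 115563727, plus strand), which encodes the base that binds the stalk to the ribosome, stood at 1582 CPM (interval 1571 to 1592) in the control library and 2963 CPM (2949 to 2977) in the Mettl14-cKO library, a log2 ratio of 0.91 (0.89 to 0.92). By class its level was 1286 against 2532 CPM in rods, 1000.3 against 1997 CPM in cones, 1775 against 3459 CPM in bipolar cells and 2297 against 4221 CPM in Müller glia, log2 ratios of 0.98, 0.997, 0.96 and 0.88. In amacrine cells (1680.3 against 1967 CPM) and ganglion cells (1096 against 1351 CPM) the ratios of 0.23 and 0.30 stayed under 0.32. Rplp0 lay above the members' median by 0.32 or more on the log2 scale in all 6 classes.

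The other stalk proteins, Rplp1 and Rplp2, pair up and dock on Rplp0. Rplp1 stood at 1013 CPM (interval 1005 to 1021) in the control library and 1481 CPM (1471 to 1490.5) in the Mettl14-cKO library, log2 0.55 (0.53 to 0.56), and Rplp2 at 969 CPM (interval 961 to 977) in the control library and 1051 CPM (1042 to 1059) in the Mettl14-cKO library, log2 0.12 (0.10 to 0.13). Rplp1 had the highest ratio of all members in Müller glia, 1088 against 2136 CPM (log2 0.97), and was 1 of the 2 members higher in amacrine cells, 974 against 1224 CPM (log2 0.33). In cones and ganglion cells its log2 ratios were 0.25 and 0.04. Rplp2 was neither higher nor lower in any class, so the stalk genes did not share 1 ratio.

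Of the 8 members with the highest ratios over all cells, 5 belong to the small subunit. Rps4x (ENSMUSG00000031320, chromosome X, 102184941 to 102189394, minus strand), an X-linked protein at the surface of the small subunit, stood at 1398 CPM (interval 1388 to 1408) in the control library and 2187 CPM (2175 to 2199) in the Mettl14-cKO library, log2 0.65 (0.63 to 0.66). Its level was 1944 against 3130.0 CPM in Müller glia, 1625 against 2502 CPM in bipolar cells, 1148 against 1856 CPM in rods and 1068 against 1593 CPM in cones, but 1428 against 1409 CPM in amacrine cells, where the interval of the log2 ratio of -0.08 to 0.04 holds 0. Rps19, which acts in the maturation of 18S ribosomal RNA and is mutated in Diamond-Blackfan anaemia, stood at 1381 against 2121 CPM, log2 0.62 (0.61 to 0.63), and was higher in the same 4 classes as Rps4x, from 0.56 in bipolar cells to 0.67 in Müller glia. Rps24, another gene of that disease, stood at 2615 against 3832 CPM, log2 0.55 (0.54 to 0.56). Rpsa, also known as the laminin receptor, stood at 1465 against 2139 CPM, log2 0.55 (0.53 to 0.56), and reached 0.72 in Müller glia. Rps27a, made as a fusion with ubiquitin, stood at 2311 against 3362 CPM, log2 0.54 (0.53 to 0.55). Each of these 5 genes was higher in Müller glia, rods, bipolar cells and cones and neither higher nor lower in amacrine and ganglion cells.

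A smaller set stood lower or did not move with the rest. Rpl29 (ENSMUSG00000048758, chromosome 9, 106429454 to 106431568, plus strand), a small basic protein of the large subunit, stood at 1206 CPM (interval 1196 to 1215) in the control library and 1002 CPM (994 to 1011) in the Mettl14-cKO library, log2 -0.27 (-0.28 to -0.25), which is nearer to 0 than the threshold. It was lower in amacrine cells (1190.3 against 784 CPM) and ganglion cells (863 against 569 CPM), both at log2 -0.60, and lay below the members' median by 0.32 or more in all 6 classes.

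Several other members had log2 ratios over all cells that were below 0 by less than 0.32. Among them were Rpl23a, a protein at the exit of the nascent chain, at 286 against 242 CPM (log2 -0.24), Rps15 at 419 against 355 CPM (-0.24), Rps25, known from internal initiation on viral RNAs, at 494 against 436 CPM (-0.18), Rpl31 at 400.2 against 359 CPM (-0.16) and Rpl22 at 658 against 597 CPM (-0.14). Lower in cones were Rps15 (log2 -0.41), Rps25 (-0.36) and Rpl23a (-0.36), 3 of the 4 members counted there. Rpl7l1 was among the 11 members lower in amacrine cells, at a log2 ratio of -0.50. The lower members in ganglion cells besides Rpl29 ranged from -0.65 for Rpl7l1 to -0.34 for Rpl39. Across the 6 classes 18 members had log2 ratios above 0 in every class and 6 below 0 in every class, against 16.7% and 14.3% of all genes tested in the 6.

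The most abundant members in the control library were Rpl13 at 2827 against 3557 CPM, Rps24 and Rps29 at 2358 against 3229 CPM, while Rpl3l was at 2.79 CPM. Rpl13 (log2 0.33) and Rps29 (0.45), a zinc-binding protein near the decoding site, were both higher. Between the 6 classes of the control library the levels of the members spread by different amounts. Named after their values were seen, Rpl41 spanned 1.24-fold, Rpl7 3.21-fold and Rps27l 4.87-fold, with Müller glia highest in all 3 and ganglion cells lowest in Rpl7 and Rps27l.

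Among the paralogs, Rpl36al departed most from the members in the upward direction. Rpl36al (ENSMUSG00000049751, chromosome 12, 69182731 to 69184083, minus strand) is an autosomal copy of the X-linked Rpl36a (ENSMUSG00000079435, chromosome X, 134585654 to 134588062, plus strand) and encodes nearly the same protein. It stood at 491 CPM (interval 485 to 497) in the control library and 767 CPM (760.1 to 774) in the Mettl14-cKO library, log2 0.64 (0.62 to 0.67), while Rpl36a stood at 523 CPM (interval 517 to 529) in the control library and 600.1 CPM (594 to 606) in the Mettl14-cKO library, log2 0.20 (0.17 to 0.22), close to the members' median. Rpl36al was the only member higher in all 6 classes: 399 against 687 CPM in rods, 381 against 675 CPM in cones, 573 against 857 CPM in bipolar cells, 567 against 754 CPM in amacrine cells, 576 against 785 CPM in ganglion cells and 627 against 880.4 CPM in Müller glia. Of all genes tested in the 6 classes, 2.38% were higher in each. Rpl36a was lower in ganglion cells (460.3 against 344 CPM) and neither higher nor lower in the other classes.

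Of the UMIs of this pair, Rpl36al took 48.4% (interval 48.0 to 48.8%) in control cells against 56.1% (55.8 to 56.5%) in Mettl14-cKO cells. Its part of the pair was larger in the Mettl14-cKO library in every class, with intervals that do not overlap: 46.6% against 56.5% in rods, 47.2% against 59.1% in cones, 51.5% against 58.8% in bipolar cells, 53.1% against 64.8% in amacrine cells, 55.6% against 69.5% in ganglion cells and 45.7% against 50.4% in Müller glia. The pair's share within a library does not depend on how the libraries are scaled. How reads that match both copies, or one of the many processed pseudogenes of these genes, were assigned is not given in the sources used here, so levels of near-identical copies are uncertain; 5 pseudogene symbols of the family were among the genes counted.

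The division between Rpl22 and Rpl22l1 ranged more widely between classes than between the libraries within a class. Rpl22 is known to hold down its paralog Rpl22l1. Of the UMIs of both, Rpl22l1 took 43.7% (interval 43.3 to 44.1%) in control cells against 46.1% (45.7 to 46.4%) in Mettl14-cKO cells. It was highest in ganglion (74.4% against 73.2%) and amacrine cells (61.0% against 60.9%) of both libraries. In the other classes it was 36.4% against 43.0% in rods, 36.4% against 44.9% in cones, 43.4% against 46.9% in Müller glia and 48.1% against 43.1% in bipolar cells. Between the libraries it was larger in Mettl14-cKO rods, cones and Müller glia and smaller in bipolar cells, all with intervals that do not overlap. In bipolar cells Rpl22l1 itself was lower (587 against 454 CPM), at log2 -0.37 (-0.45 to -0.29). Rpl22 was neither higher nor lower in any class.

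Rps27l, a paralog of Rps27 known as a p53 target, was higher over all cells at 262 CPM (interval 258 to 266) in the control library and 333 CPM (328 to 337) in the Mettl14-cKO library, log2 0.35 (0.31 to 0.38); Rps27 stood at 1299.9 against 1473 CPM, log2 0.18. Its part of the pair was 18.6% against 23.4% in cones, 17.8% against 19.8% in rods, 13.8% against 18.3% in ganglion cells and 10.3% against 13.8% in amacrine cells, and 12.3% against 12.5% in bipolar cells and 22.5% against 22.5% in Müller glia, where the intervals overlap. Within classes Rps27l was higher in cones only (278 against 354 CPM), although its log2 ratio was between 0.24 and 0.35 in all 6.

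Rpl7l1, a protein of large subunit precursors in the nucleolus, took 6.53% against 5.01% of the UMIs of the pair with Rpl7. Rpl7l1 itself stood at 63.1 against 61.8 CPM (log2 -0.03), and Rpl7 at 903 against 1173 CPM (log2 0.38). It was lower in amacrine cells (66.9 against 47.4 CPM; 193 and 225 UMIs) and ganglion cells (56.9 against 36.2 CPM; 109 and 96 UMIs).

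**Figure D5:**
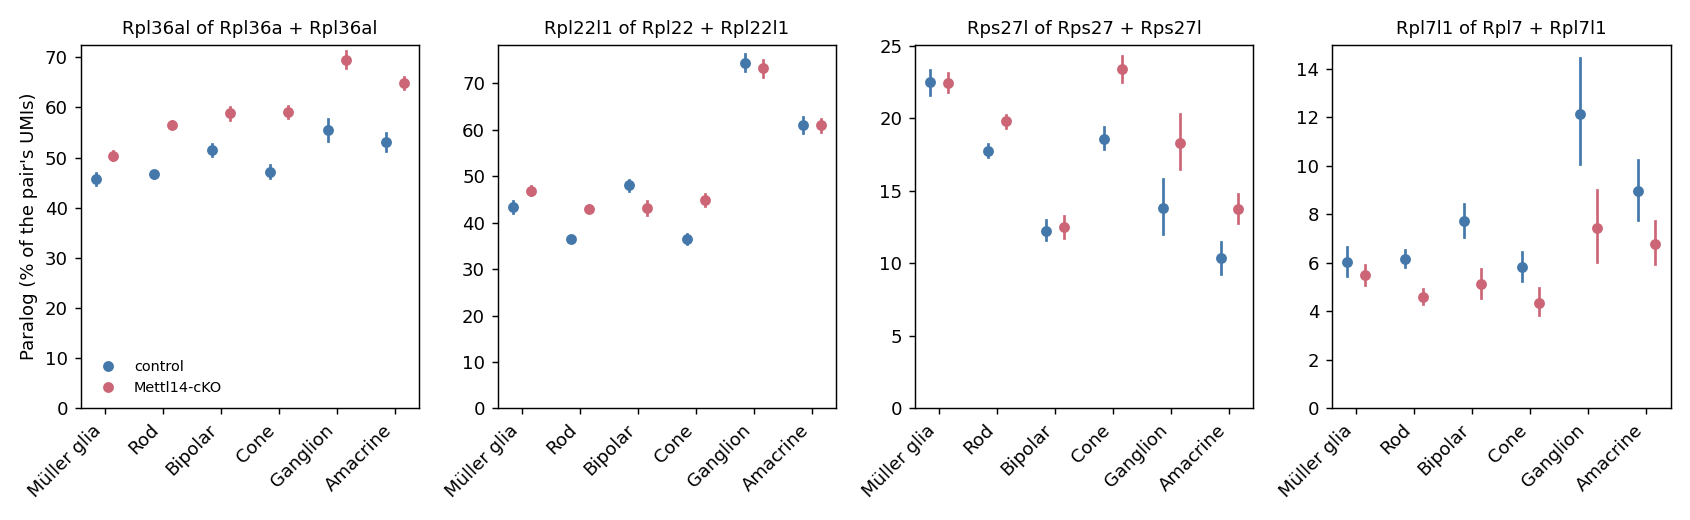
Part of the UMIs of a parent and paralog pair that falls on the paralog (y axis, percent) in the 6 gated classes of the control (blue) and Mettl14-cKO (red) library, with exact 95% binomial intervals as vertical lines; each panel has its own scale from 0. Rpl36al stands higher in the Mettl14-cKO library in all 6 classes, and Rpl22l1 is highest in ganglion and amacrine cells of both libraries.

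Rpl3l, the paralog of Rpl3 known from striated muscle, was found almost only in photoreceptors. Rods held 109 control and 76 Mettl14-cKO UMIs of it, 5.48 and 4.68 CPM, and cells gated as cones 30 and 21 UMIs, 4.398 and 3.80 CPM. Bipolar and amacrine cells held 0 UMIs in both libraries, where a count of 0, taken to allow up to 3 UMIs, leaves room for 0.538 and 0.747 CPM in bipolar and 1.04 and 0.632 CPM in amacrine cells; Müller glia held 0 and 1 UMIs and ganglion cells 3 and 1. Over all cells it was lower, 152 against 112 UMIs (log2 -0.54 (-0.91 to -0.18)). Within rods (log2 -0.23 (-0.67 to 0.21)) and cones (-0.21 (-1.09 to 0.64)) its ratios were also below 0, with wide intervals that hold 0. Rods were a smaller share of the kept Mettl14-cKO cells, as given above. What that brings to the ratio of Rpl3l over all cells was not tested. The parent gene Rpl3 was higher over all cells, 1262 against 1578 CPM (log2 0.32). Rpl39 stood at 1569.6 against 1901 CPM (log2 0.28) and Rpl10 at 376 against 447 CPM (0.25), while their paralogs Rpl39l and Rpl10l stayed under the minimum.

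The start sites of these genes show what the members share and where they differ. RefSeq's mouse promoter table (GRCm38.p6) held 65 genes whose symbols fit the rule, 62 of them among the members used. The windows run from 20 bases before to 20 after the annotated start, 5' to 3' on the strand of the gene, and capitals mark runs of at least 5 pyrimidines. Rpl7a holds the longest run of the member windows, 21 bases, and Rps27 a run of 9. The median longest run was 7 bases in the 62 members and 5 in all genes. The other windows are of genes whose ratios departed or that form the paralog pairs above.
Rpl7a (chr2:26910787-26910826, plus strand): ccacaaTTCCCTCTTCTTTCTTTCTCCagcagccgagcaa
Rps27 (chr3:90213629-90213668, minus strand): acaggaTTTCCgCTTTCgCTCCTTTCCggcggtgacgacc
Rps27l (chr9:66946066-66946105, plus strand): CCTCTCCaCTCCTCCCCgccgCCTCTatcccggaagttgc
Rplp0 (chr5:115559447-115559486, plus strand): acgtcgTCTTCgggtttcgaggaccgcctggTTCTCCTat
Rps4x (chrX:102189372-102189411, minus strand): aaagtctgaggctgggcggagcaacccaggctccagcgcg
Rpl36a (chrX:134585634-134585673, plus strand): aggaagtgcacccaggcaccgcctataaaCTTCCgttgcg
Rpl36al (chr12:69184048-69184087, minus strand): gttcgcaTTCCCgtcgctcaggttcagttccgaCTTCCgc
Rpl22l1 (chr3:28805488-28805527, plus strand): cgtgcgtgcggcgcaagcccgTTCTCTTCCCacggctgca
Rpl3l (chr17:24727806-24727845, plus strand): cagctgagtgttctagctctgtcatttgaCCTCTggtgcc
Rps4x has no such run in this window, and the longest run is 21 bases in Rpl7a against 5 in Rpl36a, Rpl36al and Rpl3l. Over the windows of 62 members, 83.9% held a run of at least 5 pyrimidines, against 61.5% of 27025 genes with a promoter in the table. Annotated starts can lie some bases from the true ones.

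Motifs were searched as exact letters. CTTTCC on the sense strand within 20 bases of a start was found in 16.9% of the 65 genes of the family and 2.30% of all genes. CCGGAAG, the core of ETS factor sites, on either strand of the 300-base promoters was found in 40% and 9.93%; the reverse strand of this motif is rich in pyrimidines, so the searches are not independent. Of the members used with a window, which leaves out chromosome 18, the 10 with CTTTCC had a median log2 ratio of 0.13 over all cells. The 52 without it had 0.24, and 1 and 19 were higher, in that order. Both groups span much of the same range, 0.03 to 0.44 and -0.54 to 0.91.

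Genes that act with the ribosomal proteins were read from lists. Fau, which encodes a ribosomal protein as a fusion under another symbol, stood at 1985 against 2199 CPM, log2 0.15. Of 18 other messenger RNAs with a terminal pyrimidine tract, 8 were higher and 1 lower over all cells, at a median log2 ratio of 0.20. Elongation factor Eef1a1 (2123 against 3710.4 CPM, log2 0.81) and the initiation factor subunit Eif3f (381 against 532 CPM, log2 0.48) had the highest ratios, and Nap1l1 (959.9 against 725 CPM, log2 -0.41), a histone chaperone, and Pabpc1 (193 against 158 CPM, log2 -0.29), the poly(A)-binding protein, the lowest. In amacrine cells, where 10.6% of all genes were higher and 7.66% lower, the same list had 1 higher and 2 lower at a median of 0.03. In Müller glia, with 15.1% and 10.7% of all genes, it had 6 higher and 0 lower at 0.24.

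Ribosome assembly factors and the polymerase that makes ribosomal RNA had members on the higher side. Of 35 biogenesis genes, 12 were higher and 0 lower over all cells at a median of 0.10, with Rrs1 (24.1 against 60.5 CPM, log2 1.33) and Nhp2 (65.5 against 126 CPM, log2 0.95) highest and Pes1 (28.4 against 23.3 CPM, log2 -0.29) and Nat10 (12.3 against 10.1 CPM, log2 -0.28) lowest. In Müller glia 15 were higher and 0 lower, at a median of 0.27, beside 15.1% and 10.7% of all genes. Of 13 RNA polymerase I genes, 5 were higher and 1 lower at a median of 0.26, from Polr1d (203 against 383 CPM, log2 0.91), a subunit shared with RNA polymerase III, and Twistnb (79.4 against 110.2 CPM, log2 0.47) down to Taf1b (17.4 against 13.9 CPM, log2 -0.32) and Znrd1 (109 against 92.6 CPM, log2 -0.24). In amacrine cells this list had 4 higher and 0 lower, at a median of 0.40, beside 10.6% and 7.66% of all genes.

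Among 12 regulators of these messenger RNAs and of growth, 2 were higher and 0 lower over all cells at a median of 0.04. The highest ratios were those of Eif4ebp1 (7.94 against 11.4 CPM, log2 0.52), a translation repressor under mTOR, and Myc (1.65 against 2.31 CPM, log2 0.48, over 90 and 135 UMIs with overlapping intervals), and the lowest those of Rptor (26.9 against 21.9 CPM, log2 -0.30) and Rps6kb2 (23.6 against 19.9 CPM, log2 -0.24). The ribosome of mitochondria uses a separate set of proteins encoded in the nucleus. Of its 78 genes, 27 were higher and 5 lower at a median of 0.10, with Mrpl43 (175 against 534 CPM, log2 1.61) and Mrpl46 (55.8 against 128 CPM, log2 1.20) highest and Mrpl47 (26.8 against 19.4 CPM, log2 -0.47) and Mrpl42 (123 against 93.6 CPM, log2 -0.40) lowest. The counts of these lists over all cells stand beside the 20.7% and 20% of all genes given above.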

How the data were processed

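The deposited matrices hold whole-number UMI counts per gene and barcode for 1 control and 1 Mettl14-cKO library, made with the 10x Genomics 3' kit v3.1 per the labels. Cell Ranger 6.1.1 and the build mm10 were the authors' tools, per the submitters' processing notes, and the counts are not normalized. Barcodes under 1000 UMIs were dropped. Classes came from fixed marker lists; a cone needed at least 5 cone markers and did not have to lead rods. The minimum number of markers was set from class sizes and marker levels without ribosomal protein values. Cells in which no class led the others by 2 markers stayed unassigned, and Scrublet (scanpy 1.11.5), which called 6.84% of control and 9.35% of Mettl14-cKO barcodes doublets, served as an alternative. The UMIs of a class in a library were added up and expressed per 1000000. Levels carry exact Poisson, ratios exact conditional and shares exact Clopper-Pearson 95% intervals (scipy 1.17.1). A gene needed 100 UMIs over both libraries, or 30 within a class. With 1 library per genotype no test was made and cells were not taken as replicates. The calling step was tested on data simulated with Poisson counting error alone, so that test does not cover variation between libraries.

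Alternatives changed the minimum of UMIs, cell filters, doublets, depth, scaling, fold and gate. Genes were named by rule: the 8 highest and 8 lowest members, 3 of each per class, the 3 most abundant, the paralog pairs, and 2 of each from the other lists; a few genes it picks are not reported here. The members and lists were chosen with earlier results of these data known. Sequences are RefSeq's. Reads, introns and empty droplets were not analysed here.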

Additional observations from a re-analysis of the deposited data

Results flagged for a closer look

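Rpl39, a very small protein at the exit of the nascent chain, was the only 1 of 81 members called in opposite directions in 2 classes. Of the 8645 genes tested in every class, 2.67% were higher in 1 class and lower in another. The log2 ratio of Rpl39 was 0.33 in rods, where it was higher, and -0.34 in ganglion cells, where it was lower. Both ratios lay only just beyond the threshold for higher or lower. The difference between these classes was not tested, since each class of a genotype comes from 1 library.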

How the results depend on the processing

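No paired analysis was possible because each genotype has 1 library; for the same reason no library could be left out. The difference in ribosomal protein share (points) over all cells was 2.27 with at least 2000 UMIs per barcode, 2.20 with the gene and mitochondrial filter, 2.11 without doublets and 2.13 in cells of 2000 to 4000 UMIs. In the same order of at least 2000 UMIs, doublets removed and 2000 to 4000 UMIs it was 2.15, 1.88 and 1.86 in rods, -0.517, -0.710 and -1.22 in amacrine cells and 3.37, 3.54 and 2.80 in Müller glia. At 2000 to 4000 UMIs it was 0.468 in cones, 2.07 in bipolar cells and, reversed, 0.800 in ganglion cells, where it was -0.296 without doublets. In cells with 7 to 8 own markers, a choice made after seeing the data, it was 2.51 in rods, 1.56 in cones, 2.68 in bipolar cells, -0.145 in amacrine cells and 2.68 in Müller glia. The amacrine difference was -0.366 under a stricter and -0.660 under a looser gate. Shares of all genes are given for the main settings only, so counts of members under the alternatives, here and above, stand without them. At 1.5-fold the members higher and lower were 4 and 0 over all cells, 6 and 0 in rods, 2 and 0 in cones, 3 and 0 in bipolar cells, 0 and 2 in amacrine cells, 0 and 2 in ganglion cells, and 7 higher in Müller glia. Members lower over all cells numbered 1 at 2000 UMIs and 1 without doublets, and in rods 2 under each of these and 2 at 2000 to 4000 UMIs. At 2000 to 4000 UMIs 3 were higher and 2 lower in cones, 28 lower in amacrine cells, 5 higher and 0 lower in ganglion cells and 1 lower in Müller glia. Scaled by the median ratio, 2 were lower in cones, 1 higher and 18 lower in amacrine cells and 1 lower in Müller glia; scaled without members and mitochondrial genes, 1 was higher in amacrine cells, as without doublets. With 7 to 8 own markers 2 were lower in cones, 6 higher and 4 lower in amacrine cells and 2 higher in ganglion cells. The members' median log2 ratio kept its sign under these alternatives except in ganglion cells, where it ranged from -0.09 to 0.18. Measured from the median of all genes, 34 members departed over all cells, and the departure of Rpl22l1 reversed from -0.23 to 0.019. That of Rpl36al went from 0.41 to 0.67, of Rpl3l from -0.77 to -0.52, of Rpl7l1 from -0.26 to -0.0079 and of Rps27l from 0.11 to 0.37. The causes were not tested. The 157 values not listed stayed within 1.5 times for counts or within 1 interval for shares. With 1 library per genotype the spread between animals is unknown, and Rpl3l rests on 152 control and 112 Mettl14-cKO UMIs.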

Other observations

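Classes with fewer than 100 cells in a library had shares of their own. Microglia, the immune cells of the retina, had 19.8% of UMIs in 36 control and 18.6% in 95 Mettl14-cKO cells. Vascular cells had 18.2% in 17 and 19.1% in 24 cells. Neurogenic cells, which are on the way from progenitor to neuron, had 15.02% in 59 and 18.8% in 209 cells, and their median cell had 15.3% and 18.5%. Horizontal cells had 7.29% in 48 and 7.79% in 53 cells. In cycling cells the summed share was 17.2% in 21 control and 12.8% in 102 Mettl14-cKO cells, whereas the median cell had 11.6% and 12.9%, so the sum and the median cell differ in sign. Cells placed in no class had 11.1% and 13.8%.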
